A study of Mus musculus with 564 samples.

Results

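Interferon beta, encoded by Ifnb1, and the interferon regulatory factors (IRFs) were followed through the acetylation of histone H3 on lysine 27 (H3K27ac) around their genes, a mark that regulatory DNA carries when it is in use. The members were the cis-regulatory elements (CREs, here ATAC-seq peaks) whose centre lay within 25 kb of a RefSeq transcription start of Ifnb1, Irf1, Irf2, Irf3, Irf4, Irf5, Irf7, Irf8 or Irf9 on mouse genome build mm10. The rule took 57 of 59190 CREs. These were 5 at Ifnb1, 7 at Irf1, 12 at Irf2, 5 at Irf3, 6 at Irf4, 6 at Irf5, 3 at Irf7, 9 at Irf8 and 4 at Irf9. For 49 of them the nearest protein-coding start was that of the member, and for 8 it was another gene. A further 8 CREs, all inside Irf2, entered through predicted starts only, and 49 lay within the window of a curated start. Below, a CRE is named by the distance of its centre from the first curated start of its gene, and the promoter CRE is the one that overlaps a start.

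Bone marrow-derived macrophages (BMDMs) from wild type male C57/BL6 mice were exposed for 1 h to vehicle (DMSO) or to 1 of 58 clinical kinase inhibitors (CKIs). They were then left untreated (UT) or stimulated with 10 ng/mL of bacterial lipopolysaccharide (LPS) or of interleukin 4 (IL-4) for 30 min, 1 h, 2 h or 4 h. All cells were wild type and all values are H3K27ac reads per CRE, scaled by the authors. The table held 564 libraries, 18 from vehicle (2 in each of 9 groups) and 546 from CKIs, of which 474 CKI conditions had 1 library and 36 had 2. Nothing in the labels states that the vehicle replicates came from separate mice or cultures, so p-values measure the spread between these libraries, which may be technical.

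As background, LPS is sensed by TLR4, whose TRIF branch activates TBK1 and IKKε and through them IRF3, which acts with NF-kB and AP-1 at the Ifnb1 promoter. Secreted interferon beta then signals through its receptor, JAK1 and TYK2 to a complex that contains STAT2 and IRF9, which induces further genes including Irf7. IRF1 is an inducible activator with IRF2 as its counterpart at shared sites, IRF5 takes part in cytokine induction by Toll-like receptors, IRF8 is a lineage factor of macrophages that partners PU.1, and IRF4 is linked to the IL-4 response.

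The 250 bases before the first curated start of 4 members are shown because they hold the motifs named for these pathways, with every match in capitals (RefSeq, build GRCm38.p6, which is mm10). The 9 member genes had 12 promoters in the RefSeq set. The motifs, searched on both strands, were GAAA followed after any 2 bases by GAAA (paired IRF site), AANNGAAA (single IRF site, contained in the paired site and added after the sequences were seen), TTCNNNGAA (STAT site, GAS), TGANTCA (AP-1), GGAA followed after any 2 bases by GAAA (ETS and IRF composite, which also contains the single site) and the NF-kB motif.
Ifnb1 (chr4:88522795-88523044, minus strand): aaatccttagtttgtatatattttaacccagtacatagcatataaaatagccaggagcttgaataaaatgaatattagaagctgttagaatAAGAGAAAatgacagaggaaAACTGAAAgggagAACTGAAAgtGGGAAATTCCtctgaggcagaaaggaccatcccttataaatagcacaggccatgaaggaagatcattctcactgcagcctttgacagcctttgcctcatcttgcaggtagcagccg
Irf1 (chr11:53769764-53770013, plus strand): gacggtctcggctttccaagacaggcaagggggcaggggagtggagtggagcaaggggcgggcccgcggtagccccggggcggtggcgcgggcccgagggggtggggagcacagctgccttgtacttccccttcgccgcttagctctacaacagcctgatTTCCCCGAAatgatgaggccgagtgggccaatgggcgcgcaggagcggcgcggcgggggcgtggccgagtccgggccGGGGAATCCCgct
Irf2 (chr8:46739495-46739744, plus strand): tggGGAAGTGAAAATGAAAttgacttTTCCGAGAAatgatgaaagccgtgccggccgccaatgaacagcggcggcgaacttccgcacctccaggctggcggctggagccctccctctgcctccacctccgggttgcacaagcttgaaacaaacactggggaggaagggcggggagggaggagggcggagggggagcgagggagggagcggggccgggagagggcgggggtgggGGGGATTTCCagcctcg
Irf8 (chr8:120736108-120736357, plus strand): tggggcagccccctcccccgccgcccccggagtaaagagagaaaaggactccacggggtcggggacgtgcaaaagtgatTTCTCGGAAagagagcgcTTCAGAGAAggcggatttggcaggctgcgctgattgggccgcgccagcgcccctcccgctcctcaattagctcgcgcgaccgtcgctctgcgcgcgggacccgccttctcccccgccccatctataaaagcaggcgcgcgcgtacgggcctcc
At Ifnb1 the capitals are 3 single IRF sites, from 159 to 119 bases before the start, followed by an NF-kB motif 116 to 107 bases before it. At Irf1 they are a STAT site and an NF-kB motif, at Irf8 a pair of STAT sites, and at Irf2 overlapping paired IRF and ETS-IRF sites, a STAT site and an NF-kB motif. Over 32817 promoter windows of the same length, the single IRF site was present in 21.3%, the paired IRF site in 2.97%, the ETS-IRF composite in 2.30%, the STAT site in 7.01%, the NF-kB motif in 7.25% and AP-1 in 6.75%. The windows of Irf3, Irf4, Irf5, Irf7 and Irf9 held no match. The matches are letters in a window and were not tested for binding.

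Library totals over CREs ran from 5923684 to 6873668 scaled reads in vehicle and from 4066894 to 12391409 in CKI libraries. The contrast between strong and weak CREs within a library (a ratio of high to low values) was 53.0 to 134 in vehicle and 3.34 to 67.2 in CKI libraries, so the CKI libraries were flatter. The CKIs stood in 6 blocks of consecutive columns of the table (8 to 10 CKIs each), and the labels do not say what the blocks are. When each CKI library was set against the 9 vehicle profiles at stimulus-regulated CREs other than the members, 498 of 546 were nearest to the group of their own label, 47 to another time of the same stimulus, and 1, a library labelled BMS387032 with IL-4 at 1 h, to LPS. In block 2 the libraries labelled LPS 1 h of Lenvatinib, MK2206, TG100115, Talmapimod and XL413 were nearest to 2 h. In block 6 the libraries labelled IL-4 1 h of Apitolisib, Bafetinib, Losmapimod, MK5108, Pimasertib and SGI1776 were nearest to 4 h, and those labelled 4 h of Apitolisib, Bafetinib, Losmapimod and MK5108 to 1 h. Counts of calls over the CKI libraries are given with and without these 48 libraries. Of the macrophage markers listed for this check, 8 of 8 had a promoter CRE, with means over vehicle groups of 167 to 2064. Of 5 B cell and 3 erythroid markers none had one, nor did most T cell, neutrophil, dendritic and fibroblast markers. The T cell marker that had one held a mean of 154, near the lowest macrophage value. The neutrophil, dendritic and fibroblast ones held 37.6, 31.8 and 6.56.

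In untreated vehicle cells the promoter CREs differed widely in H3K27ac per kb of CRE. The level was 324 scaled reads per kb at Irf5, 226 at Irf9, 200.5 at Irf2, 155 at Irf8, 101 at Irf3, 74.6 at Irf1, 73.9 at Irf7, 37.4 at Irf4 and 13.4 at Ifnb1. The replicate values of neighbours in this order did not overlap except at Irf1 (70.9 and 78.4) and Irf7 (73.4 and 74.4). Among 11507 CREs near protein-coding starts, Irf5 was at percentile 99.8 and Ifnb1 at percentile 11.6.

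After LPS in vehicle, 31 of the 57 CREs were called changed (19 higher and 12 lower), where a call needs an adjusted p below 0.01 and a log2 difference above 1 at some time in a limma fit. Over all CREs tested 53.5% were called, 29.0% higher and 24.6% lower. The calls were uneven by gene. At Irf7 3 of 3 CREs were higher, at Ifnb1 4 of 5 and at Irf1 4 of 7 were higher with none lower, at Irf5 4 of 6 were lower, at Irf2 and Irf8 both directions occurred, and at Irf3 none of 5 was called. IL-4 called fewer members, 15 of the 54 that could be tested, with 10 above and 5 below rest. Over all CREs the share was 24.7%, made up of 13.6% higher and 11.0% lower. The median of the largest differences was 0.53 on the log2 scale for the members and 0.37 for all CREs after LPS, and 0.36 and 0.21 after IL-4.

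**Figure D1:**
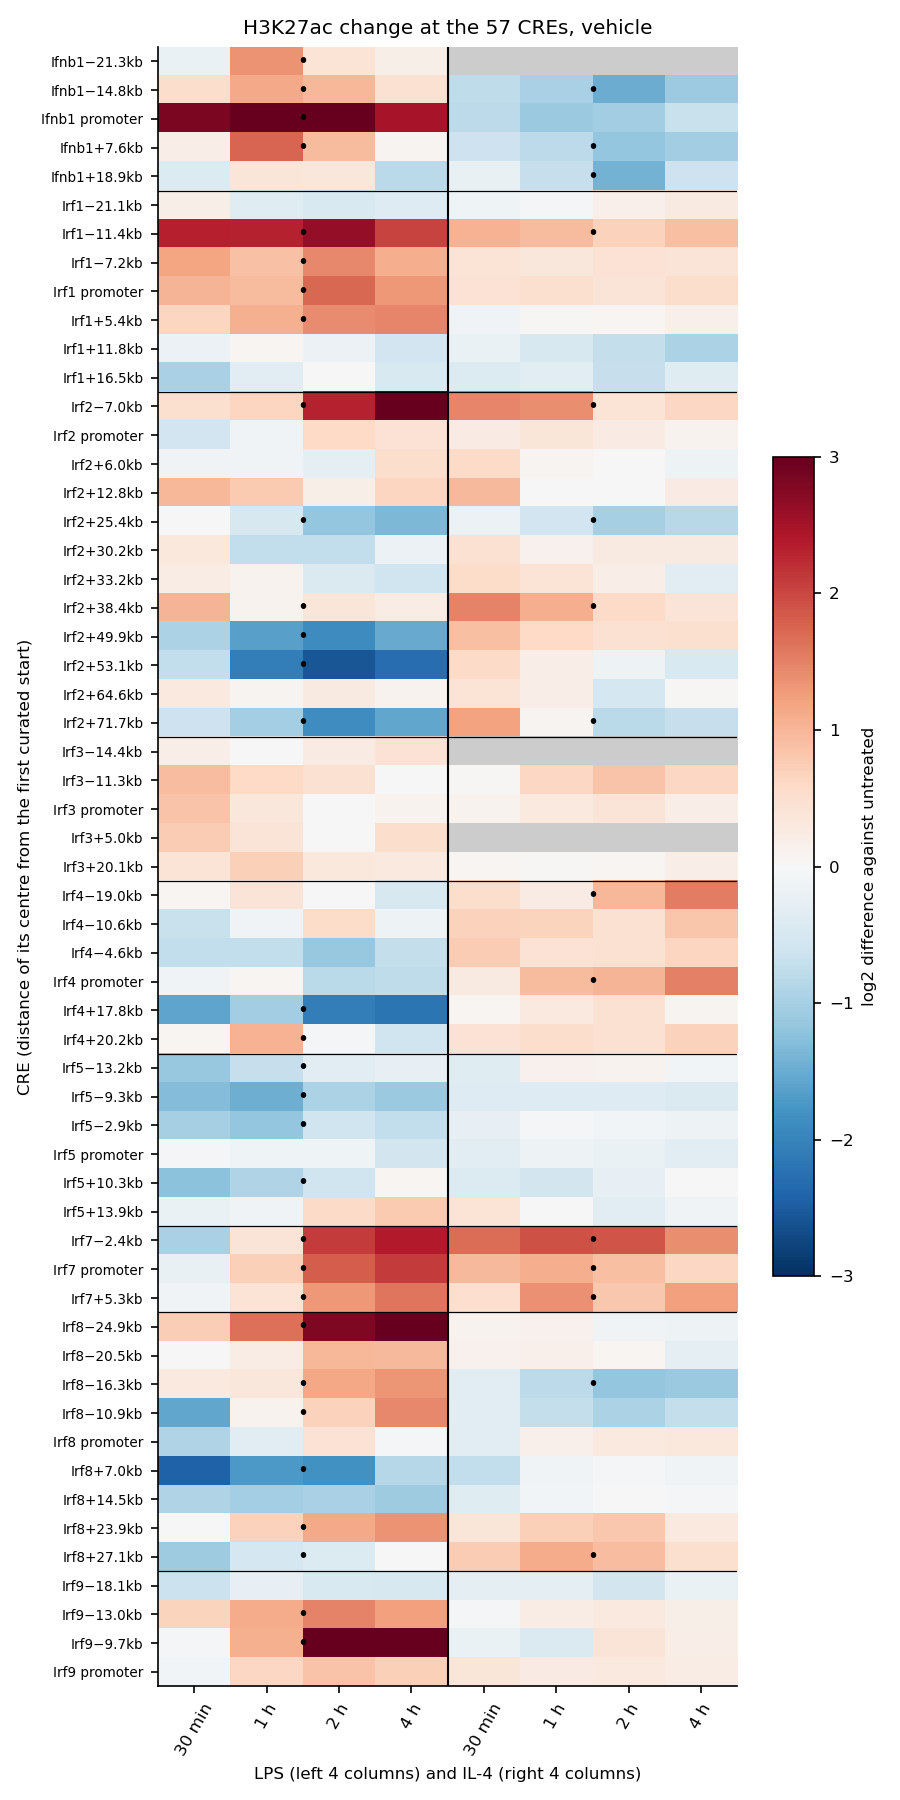
Log2 difference in H3K27ac against untreated cells at the 57 CREs in vehicle BMDMs, by time after LPS (left 4 columns) and IL-4 (right 4 columns), with CREs ordered by position within each gene. A dot in the middle of the 4 columns marks a called CRE (31 after LPS, 15 after IL-4), grey marks CREs not tested and colours stop at 3 in either direction. After IL-4 the Irf4 promoter shades towards red at 4 h and the Ifnb1 promoter is blue.

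The Ifnb1 promoter CRE (chr4:88522030-88524302), the only one of the 9 promoters that was nearly bare at rest, gained H3K27ac after LPS. Its scaled reads were 31 and 30 in untreated cells, 223 and 273 at 30 min, 472 and 423 at 1 h, 402 and 301 at 2 h and 205 and 179 at 4 h. Both libraries at every LPS time lay far above both untreated ones. The log2 difference was largest at 1 h, 3.67 ± 0.17 (SE, limma, n = 2 against 2, adjusted p = 3.12e-19). The rise from 30 min to 1 h had an adjusted p of 0.00743, whereas 1 h and 2 h did not differ beyond the spread (adjusted p = 0.303). After IL-4 the same CRE held 20 and 12, 10 and 13, 16 and 9, and 19 and 16 scaled reads at the successive times, each below the untreated values. This log2 difference of -1.11 ± 0.35 at 1 h was not called (adjusted p = 0.0354).

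Of the 4 intergenic CREs around Ifnb1, those at 7.6 kb downstream and 14.8 kb upstream gained H3K27ac with LPS and lost it with IL-4, each past the thresholds. The promoter's own fall after IL-4 was also called when the 18 vehicle libraries were fitted together (adjusted p = 0.00141). The CRE 7.6 kb downstream of the start (chr4:88513766-88516622) held 85 and 84 scaled reads at rest, 304 and 289 at 1 h of LPS and 34 and 36 at 2 h of IL-4. Its log2 difference was 1.75 ± 0.20 after LPS (adjusted p = 9.25e-10) and -1.16 ± 0.25 after IL-4 (adjusted p = 0.000758). The CRE 14.8 kb upstream (chr4:88536751-88538440) held 115 and 102 at rest, 263 and 225 at 1 h of LPS and 26 and 47 at 2 h of IL-4, with differences of 1.13 ± 0.17 and -1.50 ± 0.25. The CRE 18.9 kb downstream was called lower after IL-4 only (-1.41 ± 0.32), and the one 21.3 kb upstream, nearest to Ifna15, was called higher after LPS at low values (11 and 9 at rest, 43 and 25 at 1 h). At pseudocount 20 the IL-4 calls at 7.6 and 18.9 kb were lost. The call at 7.6 kb was also lost without either untreated library (adjusted p = 0.0221 and 0.0202), and the call at 18.9 kb without untreated replicate 1 (adjusted p = 0.0249) or IL-4 2 h replicate 1 (adjusted p = 0.0561). The LPS call 21.3 kb upstream was lost without any 1 of 5 libraries, namely either untreated or either 1 h replicate or 30 min replicate 1.

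**Figure D2:**
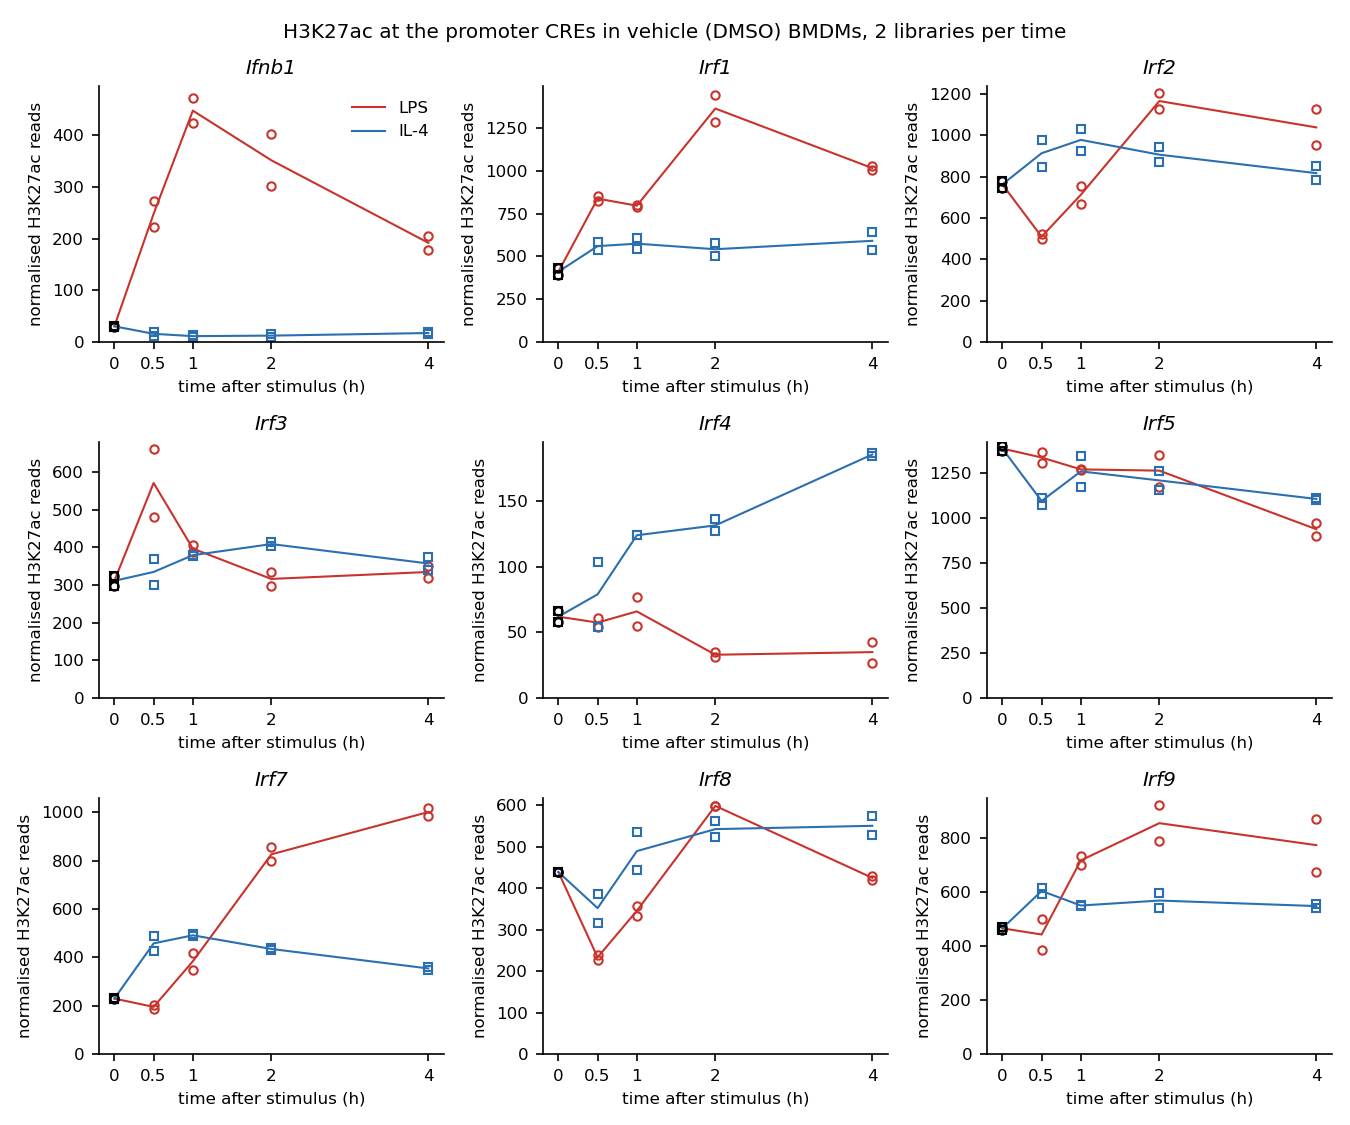
Scaled H3K27ac reads at the promoter CRE of each member against hours after LPS (red circles) or IL-4 (blue squares) in vehicle BMDMs. Points are single libraries (2 per time, black at time 0) and lines join their means, with the y axis starting at 0. Ifnb1 peaked at 1 h of LPS, Irf1 at 2 h and Irf7 at 4 h, and Irf4 rose after IL-4.

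Irf3, whose product starts the interferon response by phosphorylation of protein already present, had no called CRE under either stimulus. Its promoter CRE (chr7:44996460-44999542), which also holds the Bcl2l12 start, held 297 and 325 scaled reads at rest and 480 and 661 at 30 min of LPS, and by 2 h it held 297 and 335. The 30 min difference of 0.85 ± 0.14 had an adjusted p of 3.43e-06 but missed the log2 threshold of 1, which it passed without 30 min replicate 1 (1.08).

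The interferon-inducible members Irf7 and Irf9 differed from each other. The Irf7 promoter CRE (chr7:141264223-141267328) held 228 and 231 scaled reads at rest, 188 and 202 at 30 min of LPS, 419 and 348 at 1 h, 855 and 796 at 2 h and 1017 and 984 at 4 h. It was thus slightly below rest at first and highest at the last time, with a log2 difference of 2.10 ± 0.12 at 4 h (adjusted p = 2.79e-19), although 2 h and 4 h did not differ by the test (adjusted p = 0.084). After IL-4 it rose at once, to 428 and 487 at 30 min and 496 and 486 at 1 h, a difference of 1.08 ± 0.11 (adjusted p = 3.6e-12). The CRE 2.4 kb upstream of Irf7 (chr7:141267801-141269910), over an exon of Cdhr5, behaved in the same way with larger changes. It fell from 132 and 129 to 63 and 64 at 30 min of LPS and reached 768 and 647 at 4 h (2.39 ± 0.15), and after IL-4 it was at 418 and 433 by 30 min and 471 and 533 at 1 h (1.90 ± 0.11). LPS and IL-4 differed there by -2.65 ± 0.13 at 30 min (adjusted p = 9.43e-23).

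The Irf9 promoter CRE (chr14:55603181-55605244) was already strong at rest, with 460 and 473 scaled reads, and held 790 and 923 at 2 h of LPS, a difference of 0.87 ± 0.12 that missed the threshold of 1. The largest change in its window was 9.7 kb upstream, over an exon of Rnf31 (chr14:55593459-55595149), the gene of a ubiquitin ligase subunit. That CRE went from 19 and 25 to 278 and 239 at 2 h and 335 and 244 at 4 h of LPS (3.44 ± 0.23, adjusted p = 1.48e-17) and after IL-4 was at 14 to 34. The CRE 13.0 kb upstream, at the shared start region of Psme2 and Rnf31, was also called higher (1.49 ± 0.09 at 2 h). Both were singled out after their values were seen, since their nearest start is not that of Irf9.

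At Irf1 the gain was early and sustained. The promoter CRE (chr11:53768063-53773561) held 431 and 390 scaled reads at rest, 825 and 850 at 30 min of LPS, 791 and 801 at 1 h, 1284 and 1442 at 2 h and 1027 and 1004 at 4 h. The values stood in 2 steps, with no difference between 30 min and 1 h (adjusted p = 0.639) and a second rise to 2 h (adjusted p = 6.53e-08), where the log2 difference from rest was 1.72 ± 0.10 (adjusted p = 5.1e-16). After IL-4 it held 504 to 643, a difference of 0.52 ± 0.10 that was not called. The intergenic CRE 11.4 kb upstream (chr11:53757420-53759716) had the largest relative change, from 36 and 25 to 219 and 210 at 2 h of LPS (2.65 ± 0.20) and to 62 and 73 at 30 min of IL-4 (1.04 ± 0.24). Its IL-4 call was lost at pseudocount 20, under quantile normalization and after rescaling by the median ratio, and also without untreated replicate 2 (0.82, adjusted p = 0.114) or 30 min replicate 2 (0.93).

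Irf2, the counterpart of Irf1, had opposite changes along its length. Its promoter CRE (chr8:46738646-46742451) held 745 and 781 scaled reads at rest, 498 and 522 at 30 min of LPS and 1204 and 1129 at 2 h, and was not called (0.61 ± 0.10 at 2 h). A CRE 7.0 kb upstream (chr8:46731926-46733513) rose from 8 and 14 to 77 and 68 at 2 h and 198 and 158 at 4 h of LPS (3.53 ± 0.29, adjusted p = 5.97e-13). Inside the gene, CREs 49.9, 53.1 and 71.7 kb downstream fell after LPS. At 53.1 kb (chr8:46792039-46793693) the values went from 235 and 194 to 43 and 52 at 1 h and 47 and 21 at 2 h, a log2 difference of -2.57 ± 0.26 (adjusted p = 3.01e-11). The CRE at 71.7 kb (chr8:46810622-46812356) moved in opposite directions early on, to 375 and 386 at 30 min of IL-4 from 154 and 169 at rest, and to 102 and 106 at 30 min of LPS. Its IL-4 rise of 1.21 ± 0.16 was brief, with 88 and 91 left at 2 h. The CRE at 38.4 kb (chr8:46777128-46779115) rose at 30 min under both stimuli, to 269 and 309 with LPS (1.03 ± 0.17) and to 394 and 405 with IL-4 (1.49 ± 0.13), from 150 and 129 at rest. The LPS call at 38.4 kb was lost without untreated replicate 2 (0.92) or 30 min replicate 2 (0.93). All the CREs named here at 38.4 kb and beyond, inside the gene, are members only through predicted starts.

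Irf4 was the one member whose promoter CRE was called after IL-4 and not after LPS. That CRE (chr13:30748421-30750077) held 66 and 58 scaled reads at rest, 104 and 54 at 30 min of IL-4, 124 and 124 at 1 h, 136 and 127 at 2 h and 187 and 184 at 4 h. From 1 h on both libraries lay above both untreated ones, with a difference of 1.51 ± 0.20 at 4 h (adjusted p = 1.24e-08). After LPS it held 35 and 31 at 2 h and 27 and 43 at 4 h, below rest, a difference of -0.82 ± 0.27 that was not called, although it was called without LPS 4 h replicate 2. The test of LPS against IL-4 gave -2.28 ± 0.24 at 4 h (adjusted p = 5.92e-13). A weak CRE 19.0 kb upstream followed the promoter, from 13 and 9 to 39 and 43 at 4 h of IL-4 (1.53 ± 0.33). A CRE 17.8 kb downstream, over an exon of the gene (chr13:30766298-30767839), fell after LPS from 99 and 96 to 28 and 31 at 30 min and 19 and 16 at 4 h (-2.19 ± 0.29, adjusted p = 7.46e-08), and held 80 to 138 after IL-4.

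Irf5 had 4 CREs called lower after LPS, none of them at its start. The promoter CRE (chr6:29525845-29530136), the strongest of the 9 promoter CREs at rest, held 1400 and 1377 scaled reads at rest and 903 and 976 at 4 h of LPS, a fall by 0.56 on the log2 scale (SE 0.09) that missed the threshold of 1. The CRE 2.9 kb upstream (chr6:29522189-29525286) fell from 996 and 975 to 485 and 501 at 30 min and 455 and 425 at 1 h of LPS (-1.16 ± 0.11, adjusted p = 8.28e-11) and stood at 622 and 566 at 4 h. Weaker CREs 9.3 kb upstream, 13.2 kb upstream and 10.3 kb downstream were also called lower after LPS. The call at 9.3 kb was lost without either untreated library, that at 10.3 kb without untreated replicate 1, and that at 13.2 kb without any 1 library other than LPS 2 h replicate 1 and LPS 4 h replicate 2. After IL-4 no CRE of Irf5 was called.

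Irf8, which marks the macrophage and dendritic lineages, had CREs that rose and CREs that fell after LPS. The promoter CRE (chr8:120735467-120738297) held 440 and 438 scaled reads at rest, 239 and 228 at 30 min of LPS, 599 and 598 at 2 h and 430 and 420 at 4 h. The early fall by 0.90 on the log2 scale (SE 0.12) missed the threshold of 1. The CRE centred 7.0 kb into the gene (chr8:120740402-120746283), singled out after its values were seen, fell from 673 and 624 to 112 and 120 at 30 min and stood at 395 and 319 at 4 h (-2.43 ± 0.15 at 30 min, adjusted p = 1.16e-15). Upstream, the CRE at 24.9 kb (chr8:120710667-120712238) rose from 35 and 33 to 129 and 107 at 1 h, 264 and 272 at 2 h and 303 and 309 at 4 h (2.996 ± 0.20, adjusted p = 7.68e-16) and held 24 to 51 after IL-4. The CRE at 10.9 kb upstream fell from 144 and 144 to 43 and 49 at 30 min and then rose to 392 and 405 at 4 h. The CRE 16.3 kb upstream (chr8:120719209-120720887) rose after LPS, from 207 and 210 to 587 and 474 at 4 h (1.32 ± 0.14), and fell after IL-4, to 88 and 92 at 2 h (-1.17 ± 0.17, adjusted p = 2.17e-08).

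**Figure D3:**
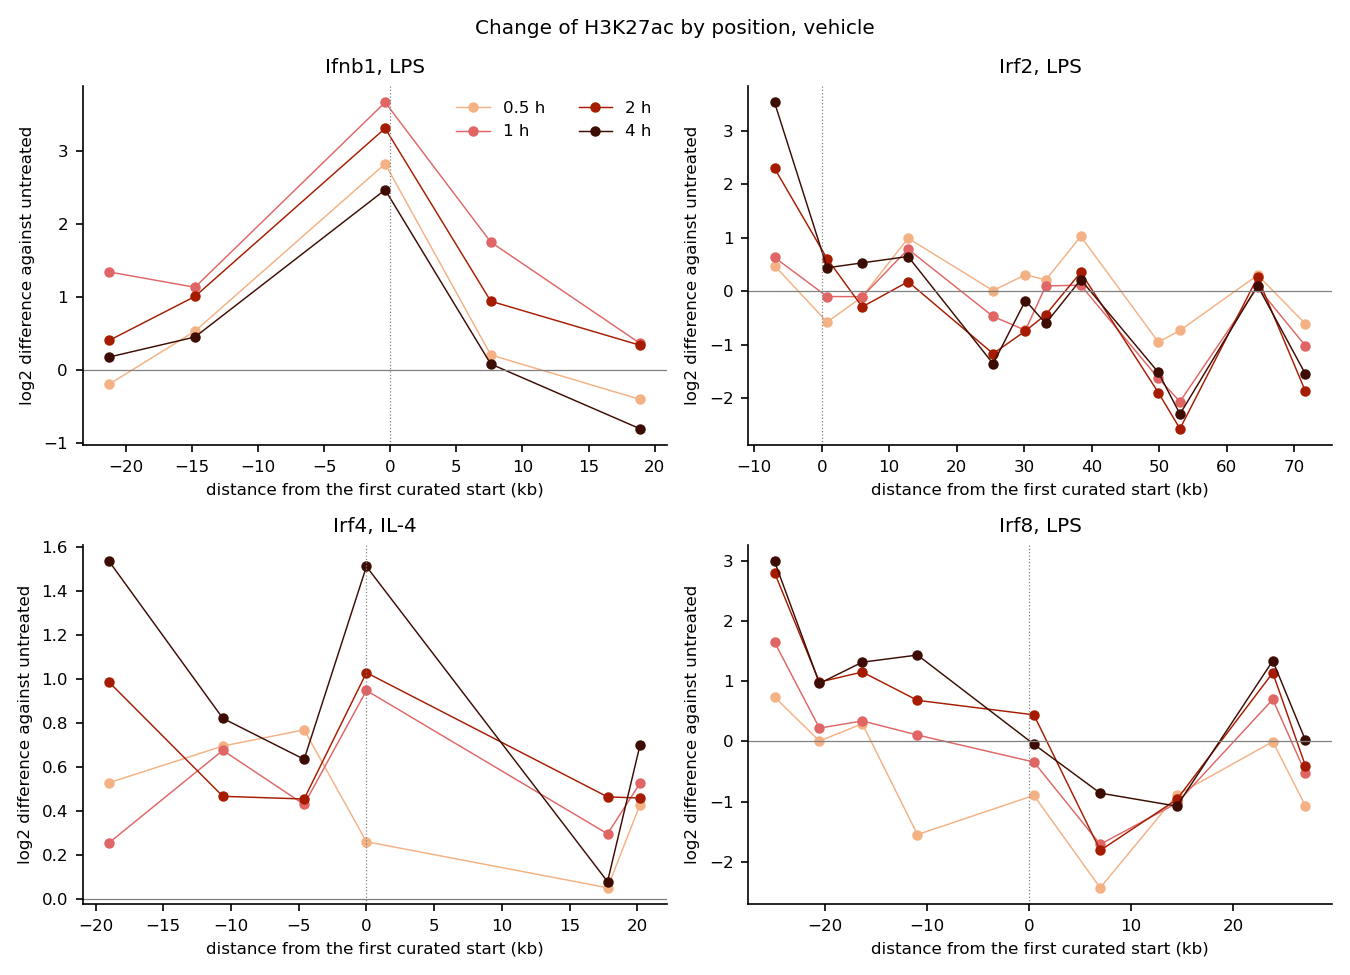
Log2 difference in H3K27ac against untreated vehicle cells by distance of the CRE centre from the first curated start (kb, positive in the direction of transcription), for Ifnb1, Irf2 and Irf8 after LPS and Irf4 after IL-4. Points are CREs, colours are times, and lines only join neighbours. At Irf8 the CRE 24.9 kb upstream rose at each time and the CRE 7.0 kb downstream fell.

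Tested directly against each other at matched times, LPS and IL-4 differed at 33 of the 57 CREs, 17 with more H3K27ac after LPS and 16 with less, against 58.4% of all CREs tested (29.2% higher and 29.2% lower). At Ifnb1 5 of 5 CREs were higher with LPS, and at Irf4 6 of 6 were lower with LPS. At Irf8 5 were higher and 3 lower, and at Irf3 none differed.

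The same scale was read at the promoters of other genes of these pathways, 50 of 56 with a promoter CRE and 49 tested. Of the 49, 31 were called higher and 5 lower after LPS. Over all CREs tested 29.0% were called higher and 24.6% lower after LPS, and 13.6% higher and 11.0% lower after IL-4. Those shares cover all CREs, not promoters alone. Of 15 interferon-stimulated genes 15 were called higher after LPS and none after IL-4, with a median log2 difference of 1.94 after LPS. They included Cxcl10, a chemokine gene (4.28 at 2 h), Ifit1 (2.87 at 2 h), Isg15 (2.55 at 2 h) and Rsad2 (1.66 at 4 h), the last 3 of them antiviral effectors. Of 16 genes for recognition and induction 8 were higher after LPS, among them Ikbke (1.43) and Tbk1 (1.35), the kinases of IRF3, and 2 were lower, namely Tlr4 (-1.09) and Mavs (-1.50). Among the receptor and signalling genes, Tyk2 (1.56) and Stat2 (1.64) rose, Stat6 fell by 1.27 on the log2 scale, and the interferon receptor genes Ifnar1 (-0.17) and Ifnar2 (0.30) were not called. All 6 feedback genes were called after LPS, with Usp18 (2.60), Socs1 (2.45), Socs3 (2.37) and Ptpn2 (1.17) higher and Irf2bp2, a corepressor gene (-2.54), and Ptpn6 (-1.05) lower. After IL-4 the 5 calls, all higher, were Socs1 (2.25), Socs3 (1.07), Ptpn2 (1.00), Batf2 (1.18) and Batf3 (1.86), the last a partner of IRF4 and IRF8.

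The promoter CREs whose 9 vehicle group means were most like those of a member are given as a description, since the points share libraries and depth. For Irf7 the highest Pearson correlation was with Stat2 (0.976), followed by Tefm (0.969) and Slfn1 (0.966). For Irf4 it was with Tfrc, the transferrin receptor gene (0.961), and for Irf1 with Cox18 (0.984) and B2m (0.977), which encodes the light chain of MHC class I. For Ifnb1 it was with Ift57 (0.991) and Folr1 (0.989), and for Irf8 with Mxra8 (0.948).

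Over the CKI libraries fewer members were called than in vehicle. With CKI as a term in the fit, 19 of 57 CREs were called after LPS (13 higher and 6 lower, against 28.9% of all CREs, 15.4% higher and 13.5% lower) and 4 after IL-4, all higher (8.84% of all CREs, 5.33% higher and 3.50% lower). Without the 48 libraries nearest to another vehicle group the counts were 21 and 4. The 4 after IL-4 were the Irf4 promoter (1.22 ± 0.06 at 4 h), the CRE 19.0 kb upstream of it (1.01 ± 0.10), the CRE 2.4 kb upstream of Irf7 (1.32 ± 0.05 at 30 min) and the Irf2 CRE at 38.4 kb (1.16 ± 0.05 at 30 min). None of the 4 vehicle LPS calls at Irf5 and none of the 5 lower IL-4 calls was made over the CKIs. The largest difference after LPS was again at the Ifnb1 promoter, 2.76 ± 0.08 at 1 h, whereas its difference after 1 h of IL-4 was -0.07 ± 0.10. At the CRE 14.8 kb upstream of Ifnb1 the LPS difference was 1.23 ± 0.06.

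Compound by compound, the LPS gain at the Ifnb1 promoter was present with every CKI. The CKI libraries held 15 to 109 scaled reads untreated (median 41.0), 47 to 435 at 30 min of LPS (median 185), 187 to 486 at 1 h (median 323), 118 to 444 at 2 h (median 264) and 64 to 276 at 4 h (median 145). All 57 CKIs with a 1 h library lay above their own untreated value, as did 58 of 58 at 30 min, 55 of 55 at 2 h and 55 of 55 at 4 h, although the margin was as small as 0.02 on the log2 scale for Omipalisib at 4 h. At the Irf7 promoter 55 of 55 CKIs were above their own untreated value at 2 h and at 4 h of LPS, but at 30 min 44 of 58 were below it, as vehicle was. At the Irf8 promoter 58 of 58 were below at 30 min. At the Irf4 promoter 55 of 55 were above at 4 h of IL-4, and 48 of 55 were below at 4 h of LPS.

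**Figure D4:**
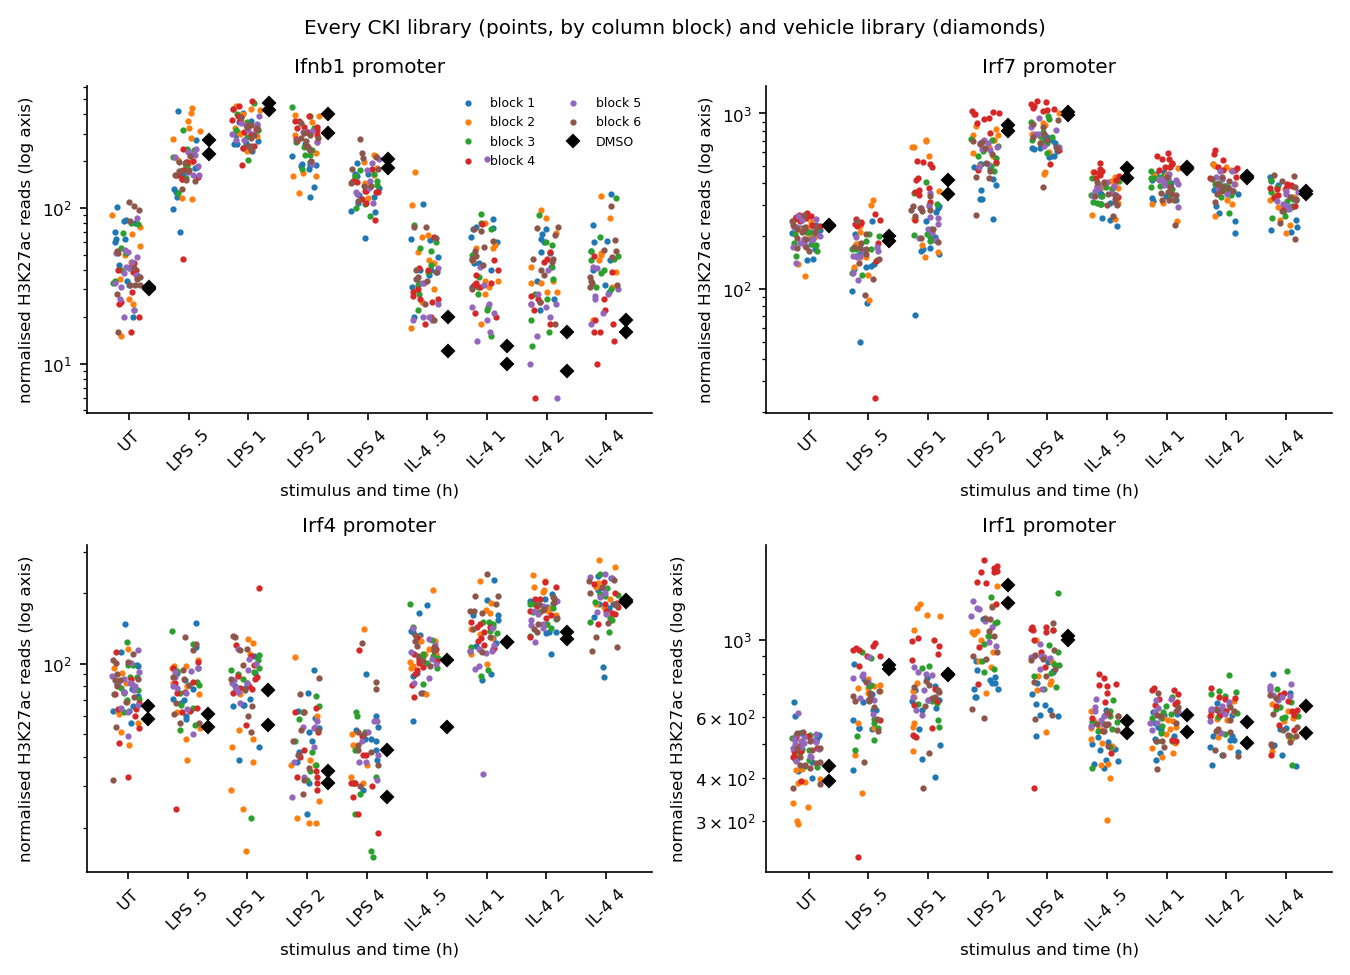
Scaled H3K27ac reads (log axis) at 4 promoter CREs in every CKI library (points, coloured by column block) and vehicle library (black diamonds), by stimulus and hours. At the Ifnb1 promoter the LPS libraries stand above the untreated ones, and at the Irf7 promoter some block 2 libraries labelled 1 h of LPS lie as high as 2 h libraries.

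At the Irf7 promoter the libraries of block 2 that were labelled LPS 1 h but nearest to another time held up to 708 scaled reads, whereas the others of that block and label held 153 to 363. At the Irf4 promoter the block 6 libraries labelled IL-4 4 h but nearest to 1 h held 113 to 149, and the others of that label held 178 to 228.

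Against vehicle, 820 of 3306 pairs of CKI and member CRE were called over the LPS and untreated libraries (603 higher and 217 lower, adjusted p below 0.05 and log2 difference above 0.5). Over all CREs 36.4% of pairs were called, 32.3% higher and 4.04% lower. For IL-4 974 were called, 845 higher and 129 lower, against 39.2% of all pairs, 36.2% higher and 3.03% lower. At promoters the LPS calls were nearly all lower. They were made for 38 CKIs at Irf9, 24 at Irf2, 17 at Irf7, 12 at Irf5, 5 at Irf1, 5 at Irf8, 4 at Ifnb1 and 1 at Irf3, whereas at Irf4 5 CKIs were higher. For IL-4, 42 CKIs were called higher at the Ifnb1 promoter, where vehicle held 9 to 20 scaled reads after IL-4. That comparison also takes in the untreated libraries, in which vehicle was higher. The CKI libraries had less contrast than vehicle, and under quantile normalization the counts fell to 84 and 144 pairs, with 39 higher and 45 lower for LPS and 58 higher and 86 lower for IL-4. Without the libraries nearest to another vehicle group they were 858 and 941. The part of contrast in these calls was not tested.

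**Figure D5:**
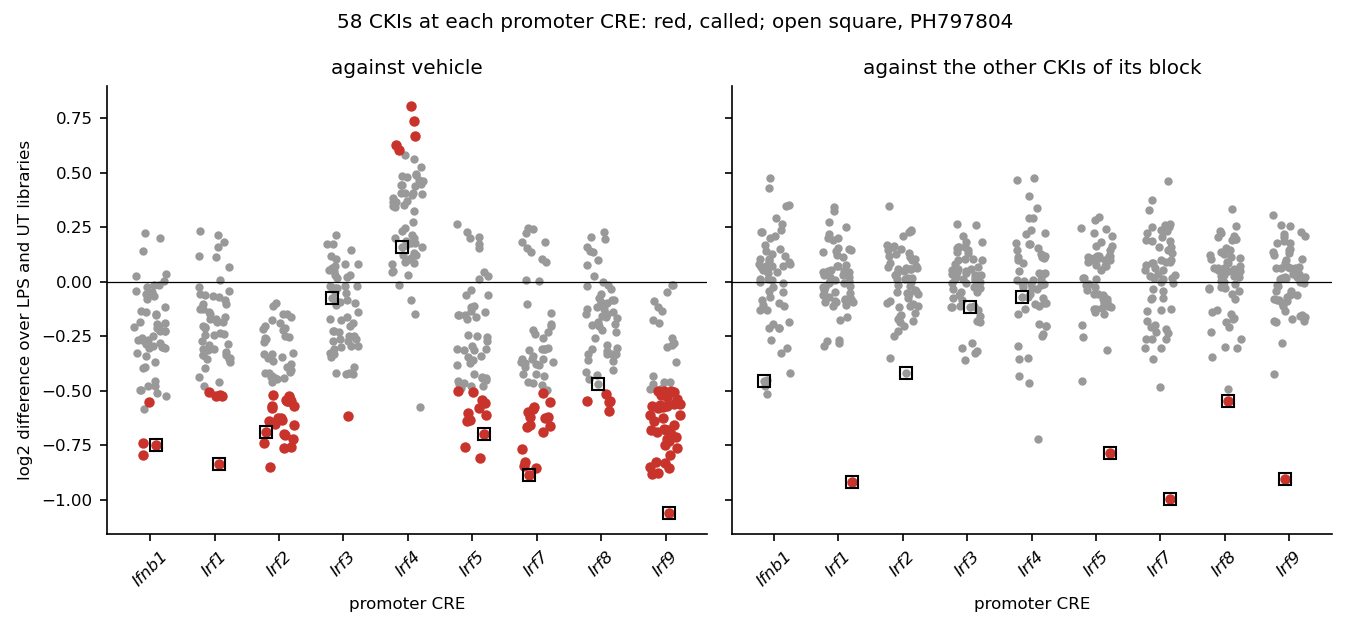
Log2 difference of each of 58 CKIs at the 9 promoter CREs over its LPS and untreated libraries, against vehicle (left) and against the other CKIs of its column block (right). Red points are called and open squares mark PH797804, which holds all 5 promoter calls on the right.

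Set against the other CKIs of the same block, few CKIs stood apart. For LPS 28 of 3306 pairs were called (6 higher, 22 lower), a share of 0.847% against 1.15% over all CREs (0.742% higher and 0.406% lower). For IL-4 21 were called (10 higher, 11 lower), 0.635% against 1.25% (0.848% higher and 0.400% lower). Without the 48 libraries nearest to another vehicle group the counts were 24 and 27. PH797804, a p38 inhibitor, held 16 of the 28 and 10 of the 21, but it was called at 42.6% of all CREs over LPS and at 40.7% over IL-4. Its promoter calls over the LPS and untreated libraries were all lower. They were Irf7 (-0.999 ± 0.17), Irf1 (-0.92 ± 0.13), Irf9 (-0.90 ± 0.12), Irf5 (-0.78 ± 0.12) and Irf8 (-0.55 ± 0.17). Under quantile normalization 9 of its 10 IL-4 calls and 13 of its 16 LPS calls were lost, the latter including Irf1 (-0.31), Irf9 (-0.44), Irf5 (-0.11) and Irf8 (-0.06), and without the libraries nearest to another vehicle group 6 were lost, none of them at a promoter. At the Irf7 promoter it held 24 scaled reads at 30 min, 344 at 1 h, 480 at 2 h and 518 at 4 h, where the medians of its block were 236, 398, 945 and 1067.5. The contrast of its libraries was low as well, with a median of 10.3 against 35.1 over its block, and its 30 min LPS library had the lowest total of all. Without that library the LPS count over all CKIs was 36, and the call at the Irf8 promoter was lost (-0.41). The part of low contrast in its calls was not tested.

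Among the other CKIs, Mubritinib, an ERBB2 inhibitor, had 4 LPS calls, all lower, and was called at 1.27% of all CREs. At the CRE 2.4 kb upstream of Irf7 it held 30 scaled reads at 30 min, 70 at 1 h, 394 at 2 h and 392 at 4 h, where the block medians were 85.0, 156, 479 and 459.5. It was the lowest of its block at 30 min but not at 1 h or 4 h, with a difference of -0.71 ± 0.19 (adjusted p = 0.0312). The others were 11.4 kb upstream of Irf1 (-0.63 ± 0.18), 17.8 kb downstream of Irf4 (-1.19 ± 0.27) and 18.1 kb upstream of Irf9 (-0.55 ± 0.15). Without the libraries nearest to another vehicle group, which include its own 1 h library and many of its block, none of the 4 was called (-0.38, -0.35, -0.75 and -0.08). Omipalisib, a PI3K and mTOR inhibitor, was called at 4.28% of all CREs over LPS and 4.81% over IL-4. Over LPS it was lower at the Irf2 CRE at 49.9 kb (-0.87 ± 0.17, adjusted p = 0.000321) and higher 20.2 kb downstream of Irf4 (0.85 ± 0.25, adjusted p = 0.0275). Its 4 calls over IL-4 were 2 higher and 2 lower, among them higher 7.0 kb upstream of Irf2 (1.11 ± 0.22) and lower 7.6 kb downstream of Ifnb1 (-1.40 ± 0.22). At the CRE upstream of Irf2 it held 82, 143, 108 and 104 scaled reads at the successive IL-4 times, where the block medians were 48.0, 54.5, 37.5 and 46.0. The difference downstream of Ifnb1 rests in part on a library at 0 at 1 h.

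At the Ifnb1 promoter no CKI was called against its block over the LPS and untreated libraries. The study examined Midostaurin and Momelotinib, for which it reported lower Ifnb1 RNA, as possible inhibitors of TBK1. In these libraries they differed from their block by -0.07 ± 0.21 and -0.02 ± 0.20. Midostaurin held 124, 341, 263 and 106 scaled reads at the successive LPS times and Momelotinib 156, 433, 218 and 148. The study singled out CKIs for Ifnb1 by RNA at 2 h of LPS against vehicle. The values here are another measure, promoter H3K27ac over untreated and LPS libraries against other CKIs. Midostaurin, Momelotinib and BGT226 stood in the same block, so each was part of the reference of the others. Among the CKIs that the study singled out for higher Ifnb1 RNA, Omipalisib was the lowest here at -0.48 ± 0.21 (adjusted p = 0.153). Its sign is opposite to that of the RNA, and it was not called. BGT226 (-0.21 ± 0.21), Tofacitinib (-0.19 ± 0.21) and Mubritinib (-0.10 ± 0.21) followed. IMD0354 (0.12 ± 0.19), Lapatinib (0.09 ± 0.20) and Lenvatinib (0.07 ± 0.21) were above 0. A missed threshold with SEs near 0.2 does not show that these CKIs left the Ifnb1 promoter as it was.

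The JAK inhibitors BMS911543, Filgotinib, Momelotinib, Pacritinib, Ruxolitinib and Tofacitinib bear on the members downstream of the interferon receptor. BMS911543 and Filgotinib shared a block, as did Pacritinib and Tofacitinib, so the 6 were not independent. At the Irf7 promoter their differences from the block over LPS ran from -0.30 (Pacritinib, SE 0.17) to -0.01 (Tofacitinib, SE 0.17), and none was called. That comparison takes untreated and LPS libraries together. For the LPS response at the same promoter BMS911543 (0.39 ± 0.36) and Ruxolitinib (0.18 ± 0.35) were above their block. At the CRE 2.4 kb upstream of Irf7, with untreated and LPS libraries together, they ran from -0.24 (Pacritinib, SE 0.19) to 0.01 (BMS911543, SE 0.18), and none was called. For the LPS response there, Filgotinib (-0.50), Pacritinib (-0.31) and Momelotinib (-0.07) lay below their block. BMS911543 (0.94), Tofacitinib (0.08) and Ruxolitinib (0.002) lay above theirs, and none was called. Their only LPS calls among the members were Filgotinib 13.2 kb upstream of Irf5 (-1.07 ± 0.23) and Pacritinib 20.5 kb upstream of Irf8 (-0.52 ± 0.14). At the latter Pacritinib held 227, 208, 610 and 288 scaled reads at the successive times, where its block had medians of 453.5, 312, 742 and 704. Both calls were lost under quantile normalization (Filgotinib -0.59, Pacritinib -0.28) and at pseudocount 20 (-0.56 and -0.50).

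The LPS response itself (stimulated minus untreated, against the block) was called at 4 of 3306 pairs, 2 higher and 2 lower, 0.121% against 0.176% over all CREs (0.0574% higher and 0.119% lower). These were Afatinib at the Irf8 CRE at 27.1 kb (2.56 ± 0.48) and the Irf2 CRE at 6.0 kb (2.67 ± 0.70), Talmapimod 21.1 kb upstream of Irf1 (-2.12 ± 0.54) and PH797804 7.2 kb upstream of Irf1 (-1.15 ± 0.31). Each of these CKIs had a single untreated library, on which its response depends. At the Irf2 CRE at 6.0 kb the untreated libraries of the Afatinib block held 0 to 50 scaled reads, so values there are near the floor. Under quantile normalization the calls of Talmapimod (adjusted p = 0.144), PH797804 (adjusted p = 0.198) and Afatinib at Irf2 (adjusted p = 0.0824) were lost. The Afatinib call at Irf2 was also lost at pseudocount 20 and without the repeat libraries of a condition, and the PH797804 call at pseudocount 20 and without its 30 min library. Talmapimod was called at 6.21% of all CREs in this comparison, and its LPS libraries at 30 min, 1 h and 2 h were nearest to another vehicle group. Without the 48 such libraries 10 pairs were called and the Talmapimod difference was -3.76 (adjusted p = 5.92e-05). No promoter CRE of a member was among the 4, and these pairs were singled out after their values were seen.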

How the data were processed

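H3K27ac ChIP-seq was read in 564 libraries (18 vehicle, 546 CKI). The authors trimmed reads to 51 bases, mapped them to mm10 with ShortStack, counted them around ATAC-seq summits and scaled the counts with peaks that did not vary. The submitters' processing notes also name Bowtie and SAMtools, and their versions for these libraries are not given in the sources used here. The deposited values are a score, that is, normalized read counts rounded to whole numbers, so no count model was used and raw depth is unknown. Totals per library were 4066894 to 12391409, and no column of samples was left unused.

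Values were tested as log2(value + 5) with limma 3.58.1 in R 4.3.3, keeping CREs whose mean in the fitted libraries reached 10, with Benjamini-Hochberg adjustment over all CREs. A fold change on this scale understates the change of weak CREs. Time courses used an F test over times with calls at an adjusted p below 0.01 and an absolute log2 difference above 1 at some time. CKIs were compared with vehicle, and with the other CKIs of their column block, over matched conditions. Calls needed an adjusted p below 0.05 and a log2 difference above 0.5. Most CKI conditions had 1 library, so the libraries of different conditions served as replicates of a CKI. In the time courses over CKIs, different CKIs served as replicates. These SEs and p-values therefore do not measure how well a CKI treatment repeats. The fits were tested on simulated data with the same spread for all CREs and libraries. Those data held no column blocks, differences in contrast or libraries unlike their label, so the test does not cover these features. The 9 genes, the pathway and marker lists and the tests were chosen with earlier results of these data known. Named CREs were each promoter CRE and, among CREs nearest to the member, the called one with the largest LPS and the largest IL-4 difference. Named CKIs were up to 3 extremes called against their block, the JAK inhibitors and those the study discussed for Ifnb1. Named genes of like pattern were those with the highest Pearson correlation over vehicle group means. Alternatives were the pseudocount, the filter, the scaling, thresholds, the samples in the fit and leaving out each vehicle library. Leaving out libraries nearest to another vehicle group, and keeping CREs near curated starts only, were chosen after seeing the data. Vehicle replicates share only a number. A gene of the pathway list is not reported here by name.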

Additional observations from a re-analysis of the deposited data

Results flagged for a closer look

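At 4 CREs in vehicle the difference from untreated cells had opposite signs at 30 min and 4 h. The limma test given compares the later with the earlier time. It does not test the 30 min value against untreated cells. The Irf7 promoter went from -0.23 at 30 min of LPS to 2.10 at 4 h (difference 2.33, adjusted p = 1.28e-20). The CRE 2.4 kb upstream of Irf7 went from -0.98 to 2.39 (difference 3.37, adjusted p = 1.09e-23). The CRE 10.9 kb upstream of Irf8 went from -1.55 to 1.44 (difference 2.99, adjusted p = 6.51e-18). The CRE 71.7 kb downstream of the Irf2 start went the other way after IL-4, from 1.21 to -0.69 (difference -1.90, adjusted p = 2.84e-10). In each case both libraries of each time lay on the same side of both untreated libraries. No vehicle group held enough libraries for a search for outlying samples.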

How the results depend on the processing

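In vehicle the LPS count of 31 CREs was 28 to 33, the IL-4 count of 15 was 12 to 15 and the count of 33 for LPS against IL-4 was 31 to 34 when 1 library was left out. The IL-4 count was 8 at pseudocount 20 and 24 at a log2 threshold of 0.5. Fitting the 18 DMSO libraries together added the fall of the Ifnb1 promoter after IL-4 to the calls. The IL-4 count stayed at 15, with 9 higher and 6 lower in place of 10 and 5. With the replicate block the counts were 30, 15 and 33, but the replicate numbers do not pair the samples (36 pairs of groups, r from -0.0873 to 0.0664, 0 over 0.1). Near curated starts only, an alternative chosen after seeing the data, 26 of 49 CREs were called after LPS and 12 of 46 after IL-4. Pairs called against vehicle numbered 84 for LPS and 144 for IL-4 under quantile normalization, 677 and 760 without DMSO replicate 1, and 546 and 869 without DMSO replicate 2. Against the block, LPS pairs numbered 17 under quantile normalization and IL-4 pairs 13 at pseudocount 20. Response pairs numbered 2 under quantile normalization, 7 without the 30 min LPS library of PH797804 and 10 without libraries nearest to another vehicle group, the last chosen after seeing the data. Under quantile normalization 3 PH797804 differences changed sign, to -0.001673 for LPS at the Irf2 CRE at 12.8 kb, and for IL-4 to -0.19 at 18.9 kb from Ifnb1 and -0.090 at 14.4 kb from Irf3. The causes were not tested. Over single CREs and pairs, 2477 values kept direction and side of the threshold, 160 lost and 17 gained the call. Raw depth is unknown, so weak CREs carry no counting interval.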
